A study of Sus scrofa with 18 samples.

Results

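The genes described here encode the extracellular matrix (ECM) of the pig myometrium, the muscular wall of the uterus. They are the collagens, the elastic fibre and microfibril proteins, the proteoglycans, fibronectin, the matricellular proteins and the lysyl oxidases that crosslink the fibres. The list held 44 gene symbols, and 42 of them had a row among the 24358 genes of the expression table. COL4A1 and COL6A2 had no row under their symbols and were not analysed here. MFAP4 was listed at 0 in all 18 libraries, so 41 members were tested, and each of these was at 1 TPM (a relative abundance corrected for gene length and scaled to the same total in every library) or more in all 18 libraries.

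RNA was sequenced from both muscle layers, the circular one that faces the endometrium (CM) and the longitudinal one under the serosa (LM), on the mesometrial side (M), where the uterus hangs from its ligament. The tissue came from 9 Yorkshire gilts, young female pigs of a production breed. Naturally mated gilts were sampled on day 15 of pregnancy (GD15M_CM and GD15M_LM), when the conceptuses begin to implant, or on day 12 of pregnancy (GD12M_CM and GD12M_LM), before implantation. Gilts that had not been mated were sampled on day 15 of the estrous cycle (CD15M_CM and CD15M_LM), and each of the 6 groups had 3 gilts, with both layers taken from the same gilt. No treatment other than mating is stated for any group, and the age of the gilts is not stated. The endometrium was cut away from the frozen wall with blades and the layers were then parted, so every library is bulk tissue that can hold fibroblasts, vessels and nerves beside smooth muscle. In bulk tissue fewer cells of a type and less RNA per cell cannot be told apart.

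In a muscle layer the matrix carries the force between bundles of cells. Collagens I, III and V form the fibrils, collagen IV and its partners form the basement membrane around each muscle cell, and collagen VI links the cell surface to the fibrils. Elastin and the fibrillin microfibrils give recoil and store latent TGF-beta, and small leucine-rich proteoglycans set the width and spacing of fibrils. Matricellular proteins such as thrombospondins, tenascin-C and the CCN proteins are secreted signals that change how cells attach, and several are known to respond to stretch. The matrix of the uterus is remodelled in each cycle and pregnancy.

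A pair of libraries stood apart. In the LM library of cyclic gilt 3, 46 ribosomal protein genes took 13.4% of all TPM, where the remaining 17 libraries gave 2.82% to 5.02%, and 40.0% of the 15343 genes tested between layers had their lowest level of all 18 libraries there. Among the members this share was 70.7% (29 of 41). Members in this library had a median level 0.159 times the mean of the other cyclic LM libraries. The median was 0.528 over all genes that averaged 1 TPM or more in those other libraries. COL1A1 was at 723 TPM against 21026 and 13630.1 TPM in gilts 1 and 2, whereas DCN was at 10437 TPM against 7888 and 6554 TPM. The LM library of GD15M gilt 2 had an epithelial marker sum of 799 TPM, where the other 2 gilts of GD15M_LM had 13.4 and 31.6 TPM. The main changes in calls without these libraries are given beside the results with all libraries. The smooth muscle markers were present in every library (10 of 10 above 0), with a sum of 13732 to 53690 TPM, although TAGLN was low everywhere for a muscle gene, at 4.7 to 52.4 TPM. Read depth cannot be read from TPM, so no counting error is attached to a level.

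ECM genes were among the most abundant transcripts of the tissue. SPARC, a collagen-binding matricellular protein, had the highest mean of the members (14323 TPM over 18 libraries), followed by COL1A1 (10513 TPM), COL3A1 (9931 TPM) and COL1A2 (6790 TPM), the chains of collagens I and III. DCN, the proteoglycan decorin that coats collagen fibrils, averaged 5804 TPM and COL6A1 3850 TPM. The least abundant measured member was VCAN, the large hyaluronan-binding proteoglycan versican, with a mean of 14.4 TPM. Together the members took 4.45% ± 1.03 of all TPM in GD15M_CM and 7.19% ± 1.60 in GD15M_LM (SD, n = 3 each). They took 6.20% ± 0.90 in GD12M_CM and 7.44% ± 1.37 in GD12M_LM, and 5.29% ± 1.51 in CD15M_CM and 6.53% ± 3.76 in CD15M_LM. The share was lower in CM than in LM in 8 of the 9 gilts. Cyclic gilt 3 was the exception, with 3.54% in CM and 2.41% in LM. SPARC, COL1A1, COL3A1 and COL1A2 made up 44.3% to 72.0% of the summed ECM level of a library.

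**Figure D1:**
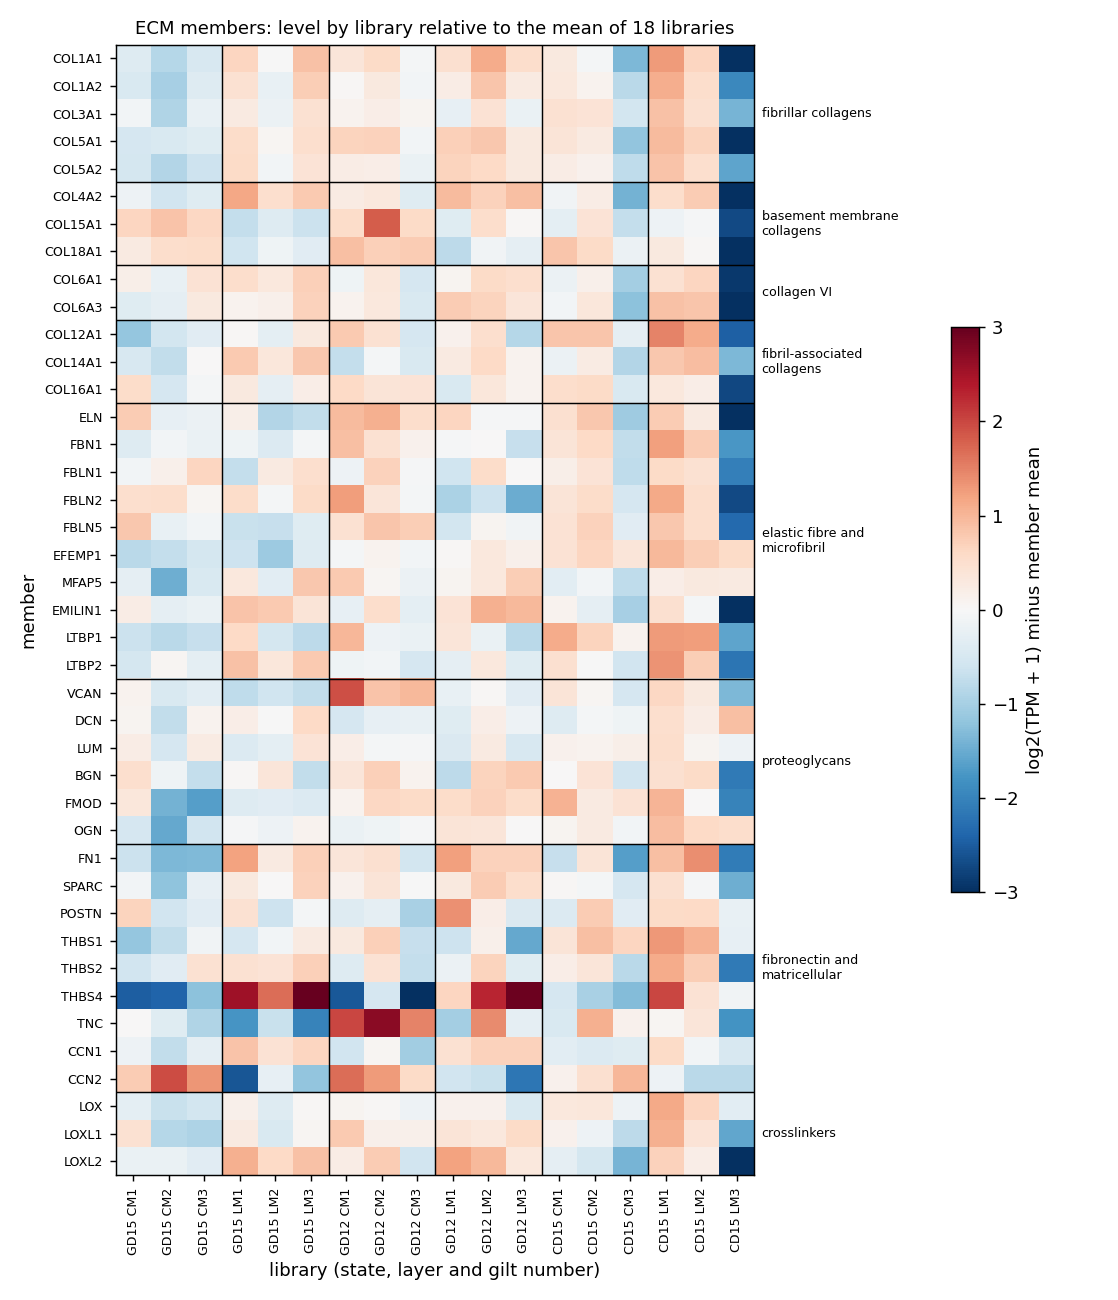
Level of 41 ECM members (rows, grouped by role) in each of the 18 libraries (columns), as log2(TPM + 1) minus the mean of the member over all libraries, with colours limited to 3 on either side of 0. The LM library of cyclic gilt 3 is the lowest of the 18 for 29 members, and THBS4 and CCN2 differ most between the layers in pregnancy.

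**Figure D2:**
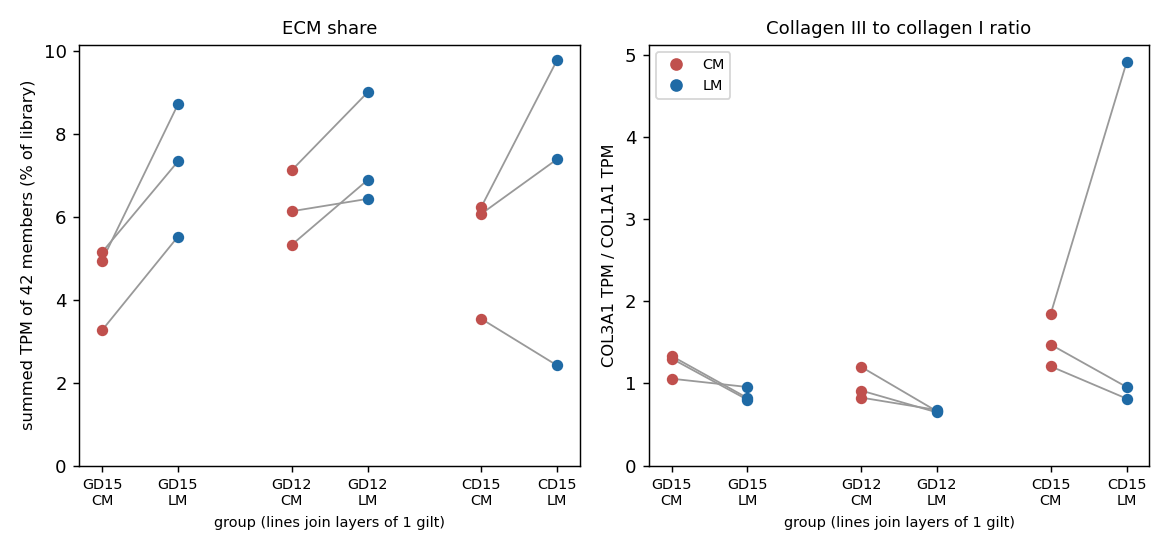
Left, summed TPM of the members as a percent of each library, and right, the ratio of COL3A1 to COL1A1 TPM, with CM and LM of each gilt joined by a line. The ECM share is lower in CM in 8 of 9 gilts and the collagen ratio is higher in CM in 8 of 9 gilts, with cyclic gilt 3 as the exception in both.

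The first question was how the matrix genes differ between the layers. A gene passed when its limma moderated test gave a Benjamini-Hochberg adjusted p below 0.05 over all genes tested and its log2 fold change was above 1 in size. On day 15 of pregnancy 2 members were higher in CM and 5 were lower. This was 4.88% and 12.2% of the members, against 10.9% and 3.56% of the 15343 genes tested. On day 12 of pregnancy 4 members were higher and 2 lower in CM, or 9.76% and 4.88% of the members against 13.4% and 2.43% of all genes. Calls in either direction made up 14.4% of all genes in GD15M and 15.9% in GD12M. On day 15 of the cycle 1 member was higher and 0 were lower, or 2.44% and 0% against 11.8% and 0.893% of all genes (12.7% in either direction). The median log2 fold change of the members was -0.48 in GD15M, -0.15 in GD12M and 0.12 in CD15M, where the median of all genes was 0.19, 0.23 and 0.33. In GD15M the libraries of the layers did not overlap for 15 members that were lower in CM (36.6%, against 11.7% of all genes) and for 5 that were higher (12.2%, against 25.7%). In GD12M 8 members were lower in CM without overlap (19.5%, against 11.2%) and 9 were higher (22%, against 33.3%). In CD15M 4 were lower (9.76%, against 3.55%), namely DCN, THBS4, MFAP5 and OGN, and 1 was higher (2.44%, against 25.9%), namely CCN2. Scaling the libraries by median ratios brought the median of all genes to 0.02, 0.00 and -0.01, and the members that passed then numbered 2 higher and 10 lower in GD15M (9.12% and 5.28% of all genes), 4 higher and 5 lower in GD12M (11.1% and 4.75%), and 0 higher and 2 lower in CD15M (7.76% and 2.52%). THBS4 and FN1 were the lower ones in CD15M. The sign of the members' median in CD15M turned as well, to -0.27 with this scaling and to -0.47 without cyclic gilt 3. Without both layers of GD15M gilt 2 and of cyclic gilt 3, a choice made after seeing the data, 12 members passed in GD15M. Of these 3 were higher and 9 lower, against 11% and 4.76% of all genes. They included TNC, LTBP2 and LOXL2, which did not pass in the main fit, but not CCN1 or MFAP5. Without each single GD15M gilt only THBS4, CCN2 and FN1 passed, with 8.31% to 10.9% of all genes passing. Without cyclic gilt 3, whose libraries share the fit, 5 members were higher and 2 lower in GD12M (14.3% and 3.02% of all genes), with COL18A1 added.

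**Figure D3:**
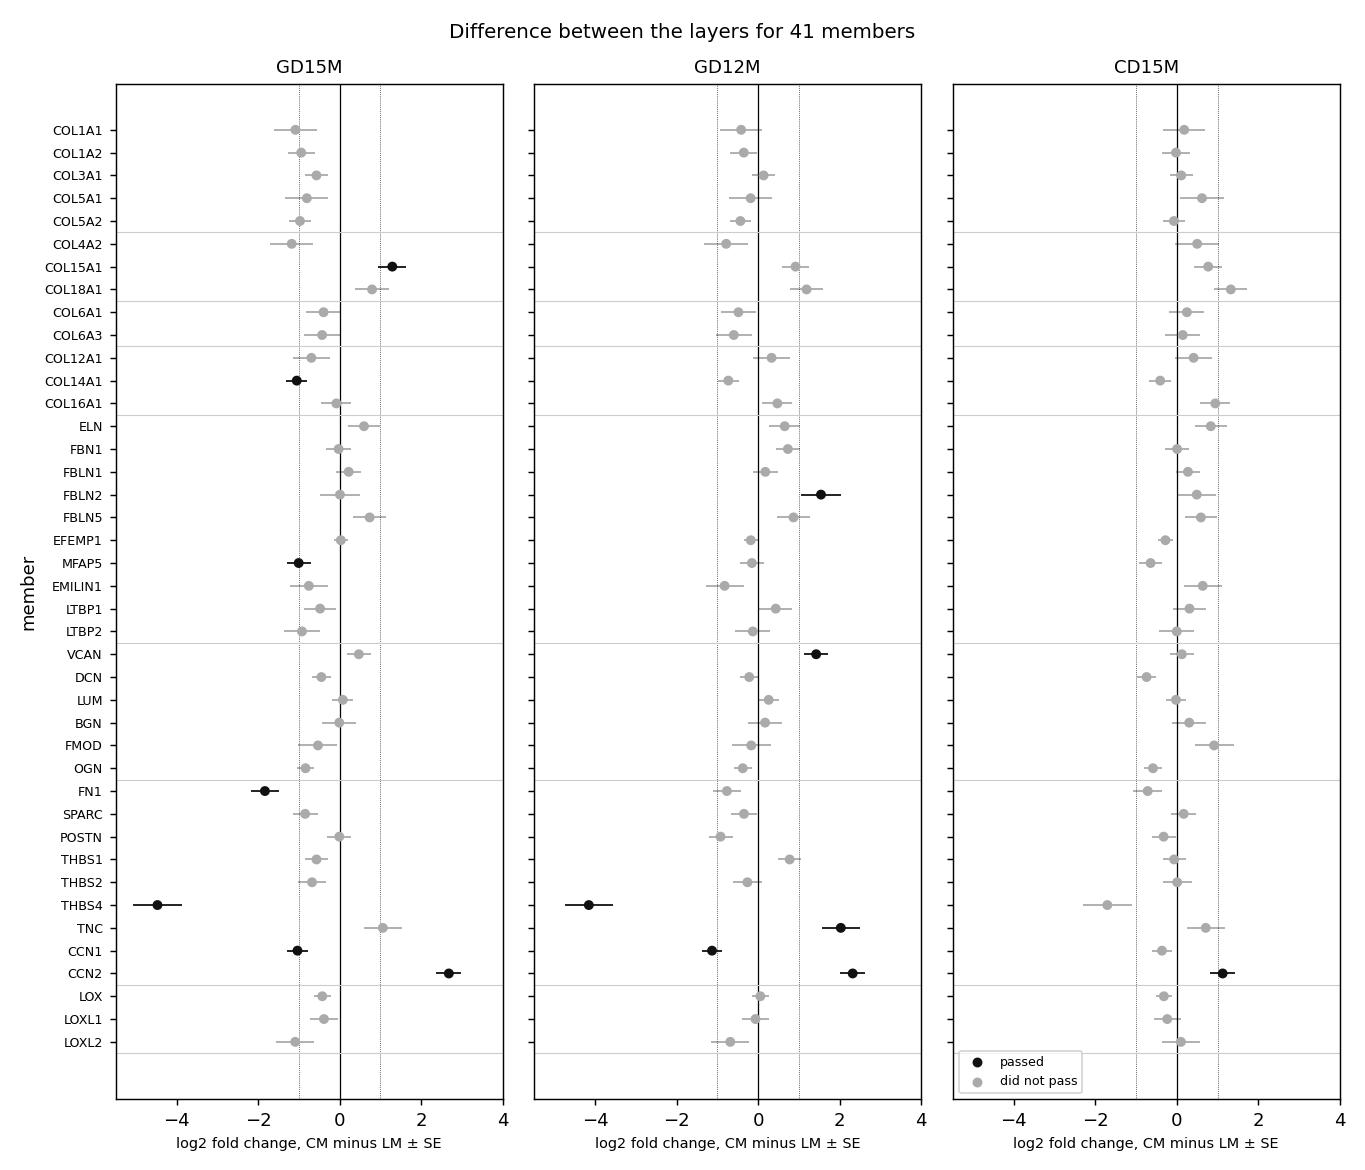
Log2 fold change of CM minus LM for 41 members in GD15M, GD12M and CD15M, with bars of 1 standard error. Black points passed the test and grey points did not, and dotted lines mark a log2 fold change of 1 in either direction. THBS4 lies at -4.47 and -4.16 in the pregnant gilts, and CCN2 lies above 1 in all 3 states.

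In pregnancy the matricellular genes held the largest layer differences among the members, in both directions. THBS4 (ENSSSCG00000014117, chromosome 2, 88729531 to 88780759 in Sscrofa11.1) encodes thrombospondin-4, a pentameric glycoprotein best known from tendon and muscle matrix. On day 15 of pregnancy it was at 14.8, 15.7 and 36.4 TPM in CM, against 516, 279 and 743 TPM in LM of gilts 1 to 3 (-4.47 ± 0.60 SE on the log2 scale, adjusted p = 0.0011). On day 12 it was at 14.0, 61.3 and 6.46 TPM in CM, against 136, 428 and 669.7 TPM in LM (-4.16 ± 0.60, adjusted p = 0.0011). All pregnant LM libraries were above all pregnant CM libraries. In the cyclic gilts it was at 60.9, 43.9 and 34.7 TPM in CM, against 354, 118 and 80.5 TPM in LM. The cyclic layers did not overlap either, but the difference did not pass (-1.71 ± 0.60, adjusted p = 0.080).

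CCN2 (ENSSSCG00000004192, chromosome 1, 31674398 to 31677697) encodes connective tissue growth factor, a secreted protein that promotes matrix production. In GD15M it was at 483, 1107 and 712 TPM in CM, against 47.4, 239 and 124 TPM in LM (2.68 ± 0.31, adjusted p = 0.00065). In GD12M it was at 916, 696 and 421 TPM in CM, against 189.7, 178 and 62.5 TPM in LM (2.32 ± 0.31, adjusted p = 0.00070). Every CM library was above every LM library of its state. In CD15M it was at 313, 396 and 568 TPM in CM, against 255, 163 and 161 TPM in LM (1.13 ± 0.31, adjusted p = 0.035), and this was the 1 member that passed in the cyclic gilts. The cyclic call was lost without gilt 2 or gilt 3. CCN1 (ENSSSCG00000006940, chromosome 4, 130392404 to 130395179), the matricellular protein also called CYR61 and a paralog of CCN2, had the opposite sign. It was at 163, 107 and 149.7 TPM in GD15M_CM, against 328, 245 and 281 TPM in GD15M_LM (-1.04 ± 0.25, adjusted p = 0.017). It was at 120.2, 187 and 87.0 TPM in GD12M_CM, against 248, 292 and 289.8 TPM in GD12M_LM (-1.13 ± 0.25, adjusted p = 0.0093). The layers did not overlap on either day, and in CD15M the difference was -0.36 ± 0.25. The CCN1 call was lost without GD12M gilt 1 or 3 and without each GD15M gilt.

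**Figure D4:**
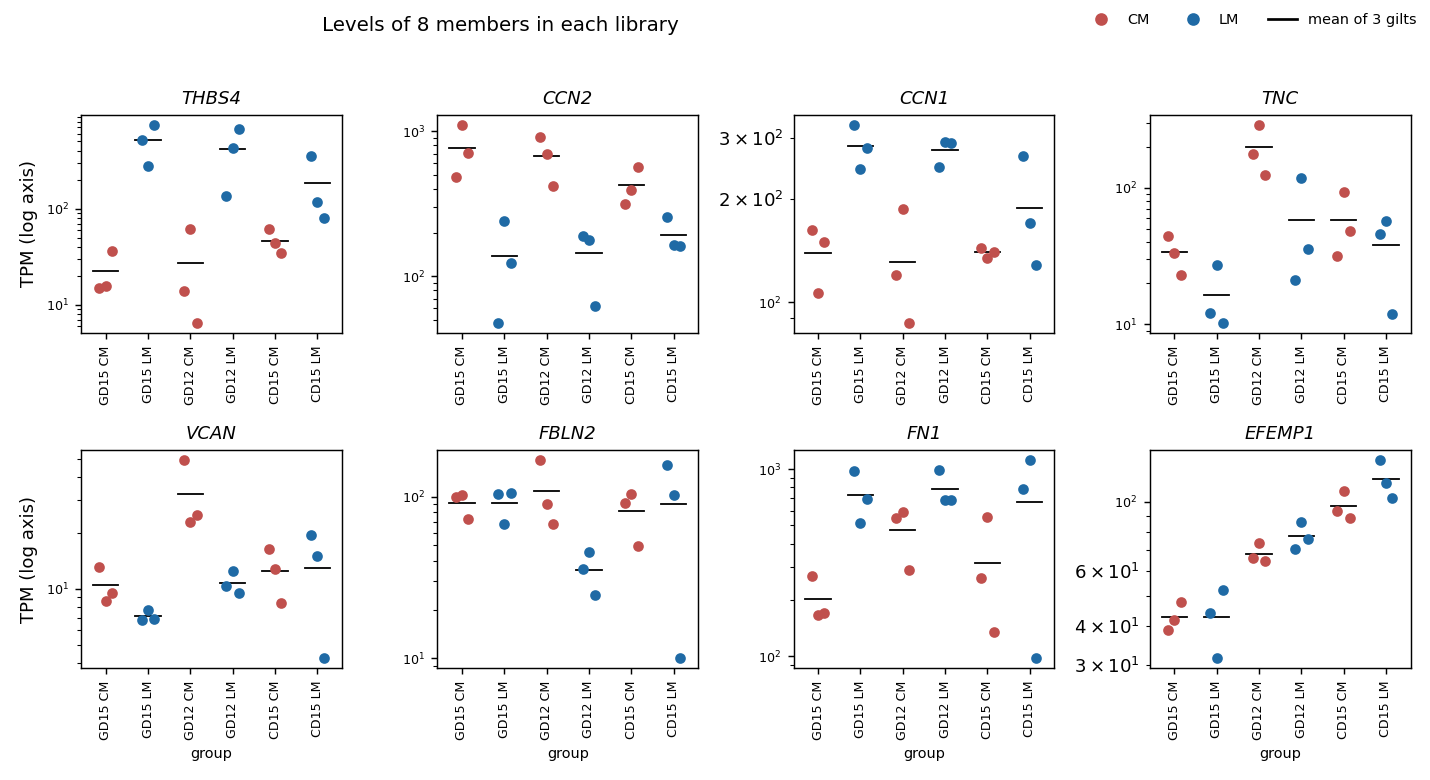
TPM of 8 members in each library (log axis, a separate scale for each gene), with CM and LM points coloured by layer, a line at the mean of 3 gilts and gilts 1 to 3 from left to right in each group. CCN2 is higher and THBS4 lower in CM than in LM in all 9 gilts, and EFEMP1 is lowest in GD15M and highest in CD15M in both layers.

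TNC (ENSSSCG00000005494, chromosome 1, 255533235 to 255630381) encodes tenascin-C, an anti-adhesive glycoprotein of remodelling tissue. In GD12M it was at 178, 290.1 and 125 TPM in CM, against 21.0, 118 and 35.9 TPM in LM (2.03 ± 0.47, adjusted p = 0.012). The layers did not overlap. In GD15M it was at 44.4, 33.6 and 23.0 TPM in CM, against 12.1, 27.3 and 10.2 TPM in LM, with overlap, and did not pass (1.06 ± 0.47, adjusted p = 0.15). It passed in GD15M as higher in CM with library weights or without both gilts whose LM libraries stand apart. FN1 (ENSSSCG00000016174, chromosome 15, 117658158 to 117737145) encodes fibronectin, the adhesive glycoprotein on which collagen fibrils assemble. In GD15M it was at 269, 166 and 169.6 TPM in CM, against 975, 514 and 694 TPM in LM, without overlap (-1.83 ± 0.35, adjusted p = 0.0058). In GD12M it was at 548, 591 and 288 TPM in CM, against 994, 683 and 682 TPM in LM, also without overlap, and did not pass (-0.77 ± 0.35, adjusted p = 0.16). In the cyclic gilts it was at 262, 552 and 135 TPM in CM, against 788, 1123 and 97.4 TPM in LM (-0.71 ± 0.35, adjusted p = 0.18). Without cyclic gilt 3 the cyclic difference passed (-1.30 ± 0.24, adjusted p = 0.011), and FN1 was then the only member to pass, among 9.11% of all genes (1.41% lower), while CCN2 no longer did. The call for TNC on day 12 was lost without gilt 1 or gilt 3.

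The other matricellular genes did not pass between the layers in the main fit. SPARC was at 9913 ± 3625 TPM in GD15M_CM and 17215 ± 4173 TPM in GD15M_LM, without overlap (SD, n = 3 each, -0.85 ± 0.31, adjusted p = 0.089). POSTN, which encodes periostin, a ligand of integrins that binds collagen, had the lowest adjusted p among them, at 59.4 ± 14.4 TPM in GD12M_CM and 128 ± 84.1 TPM in GD12M_LM (-0.92 ± 0.29, adjusted p = 0.051). It passed as lower in GD12M_CM with median-ratio scaling, quantile normalization or library weights. THBS1, which encodes the TGF-beta activator thrombospondin-1, differed by 0.77 ± 0.28 in GD12M and by -0.57 ± 0.28 in GD15M. THBS2, its close relative, differed by -0.68 ± 0.35 in GD15M and by -0.27 ± 0.35 in GD12M.

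The 5 fibrillar collagen genes had lower means in CM on day 15 of pregnancy, with log2 fold changes of -1.08 to -0.57, and none passed both limits. COL1A1, the main chain of collagen I, was at 6665, 4762 and 6184 TPM in GD15M_CM, against 13641, 8587 and 15972 TPM in GD15M_LM. The layers did not overlap, and the difference was -1.08 ± 0.52 (adjusted p = 0.19). By gilt it was -1.03, -0.85 and -1.37. The standard error comes from the fit to all 18 libraries, in which cyclic gilt 3 gave 2.24. COL5A2, a chain of the collagen V that starts fibrils, came closest. It was at 493, 382 and 461 TPM in GD15M_CM, against 1055, 665 and 941 TPM in GD15M_LM, without overlap. Its adjusted p was 0.028 with a log2 fold change of -0.97 ± 0.26, just short of 1. In GD12M the 5 genes ranged from -0.44 to 0.13 and in CD15M from -0.07 to 0.62. COL1A1, COL1A2, COL5A1 and COL5A2 were each lower in CM in 8 of 9 gilts, and COL3A1 in 6 of 9. Other settings changed these calls in GD15M. COL1A1 and COL4A2 passed as lower in CM with only the libraries compared or with library weights. COL1A2 passed with library weights or median-ratio scaling, and COL5A2 with median-ratio scaling or no fold limit. COL1A1, COL1A2, COL5A2 and COL4A2 also passed without both gilts whose LM libraries stand apart. In CD15M, COL1A1 was 0.18 with all gilts and -0.85 ± 0.24 without cyclic gilt 3 (adjusted p = 0.050, under the fold limit). COL4A2 was 0.50 with all gilts and -0.58 ± 0.20 without that gilt (adjusted p = 0.090).

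The basement membrane collagens split. COL15A1 (ENSSSCG00000005380, chromosome 1, 240718128 to 240829188) encodes collagen XV, which ties basement membranes to fibrils. It was at 278, 326 and 274 TPM in GD15M_CM, against 108, 136 and 113 TPM in GD15M_LM, without overlap (1.29 ± 0.34, adjusted p = 0.026). In GD12M it was at 261, 634 and 266 TPM in CM, against 139.7, 256 and 182 TPM in LM, again without overlap (0.92 ± 0.34, adjusted p = 0.086). The GD15M call was lost without each GD15M gilt. COL18A1, the related collagen XVIII from which endostatin is cut, was higher in CM in all 9 gilts. It passed in no state in the main fit (0.80 ± 0.41 in GD15M, 1.19 ± 0.41 in GD12M and 1.33 ± 0.41 in CD15M). In GD12M it did pass without cyclic gilt 3, with only the libraries compared, with quantile normalization or with library weights. In CD15M it passed without gilt 1, without gilt 2, with a pseudocount of 5 or with quantile normalization. Its CD15M value in the main fit was the highest of all members, and without cyclic gilt 3 it was 0.53 ± 0.19. COL4A2, a chain of the collagen IV network, went the other way in pregnancy. It was at 819 ± 123 TPM in GD15M_CM and 1869 ± 428 TPM in GD15M_LM (-1.18 ± 0.53, adjusted p = 0.17), and the layers did not overlap. COL4A2 and COL4A1 overlap by 525 bases on chromosome 11 in the RefSeq annotation, and whether reads were counted by strand is not given in the sources used here.

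Among the fibril-associated collagens, COL14A1 (ENSSSCG00000005997, chromosome 4, 18690197 to 18925111) passed on day 15 of pregnancy. It encodes collagen XIV, which binds the surface of collagen I fibrils. It was at 92.3, 77.5 and 130.2 TPM in GD15M_CM, against 225, 165 and 228 TPM in GD15M_LM, without overlap (-1.05 ± 0.26, adjusted p = 0.021). The call was lost without each GD15M gilt. In GD12M its difference was -0.73 ± 0.26 (adjusted p = 0.077). COL12A1, of the same class, differed by -0.69 ± 0.46 in GD15M and by 0.33 ± 0.46 in GD12M, and COL16A1 by -0.08 ± 0.37 and 0.47 ± 0.37. The collagen VI chains COL6A1 and COL6A3 passed in no state, with log2 fold changes of -0.60 to 0.25.

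The elastic fibre and microfibril genes did not move as a block. In GD12M 1 of 10 tested members passed. This was FBLN2 (ENSSSCG00000011609, chromosome 13, 70757255 to 70830430), which encodes fibulin-2, a linker between microfibrils, basement membrane and elastin. It was at 169, 90.4 and 67.9 TPM in GD12M_CM, against 35.9, 45.2 and 24.5 TPM in GD12M_LM, without overlap (1.54 ± 0.48, adjusted p = 0.047). In GD15M the layers overlapped, at 99.9, 102 and 73.0 TPM in CM and 103, 67.4 and 105 TPM in LM (0.01 ± 0.48). The call for FBLN2 was lost without each GD12M gilt. In GD15M the member that passed was MFAP5 (ENSSSCG00000031712, chromosome 5, 62742520 to 62757522), which encodes the microfibril protein MAGP-2. It was at 36.4, 15.4 and 32.1 TPM in GD15M_CM, against 55.3, 35.4 and 78.9 TPM in GD15M_LM (-1.01 ± 0.29, adjusted p = 0.039). The layers overlapped, although CM was lower in each of the 3 gilts, and the call was lost without each of them. ELN, the gene of elastin, and FBLN5, a fibulin needed to assemble it, were each higher in CM in 8 of 9 gilts and passed in no state (0.60 ± 0.39 and 0.74 ± 0.40 in GD15M). FBN1, the gene of the microfibril core protein fibrillin-1, differed by -0.02 ± 0.30 in GD15M and 0.73 ± 0.30 in GD12M.

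Of the proteoglycans, VCAN (ENSSSCG00000014136, chromosome 2, 91682177 to 91811674) passed on day 12 of pregnancy. It was at 49.6, 22.9 and 24.9 TPM in GD12M_CM, against 10.4, 12.6 and 9.52 TPM in GD12M_LM, without overlap (1.42 ± 0.30, adjusted p = 0.0080). In GD15M it was at 13.1, 8.67 and 9.56 TPM in CM, against 6.84, 7.71 and 6.93 TPM in LM (0.47 ± 0.30, adjusted p = 0.32). The call for VCAN on day 12 was lost without gilt 1 or gilt 3. The small leucine-rich proteoglycans DCN and OGN (osteoglycin) were lower in CM in all 9 gilts. OGN was at 116, 56.1 and 111 TPM in GD15M_CM, against 160.4, 148 and 176 TPM in GD15M_LM, and its adjusted p of 0.025 came with a log2 fold change of -0.84 ± 0.22, short of 1. DCN was at 4894 ± 572 TPM in CD15M_CM and 8293 ± 1973 TPM in CD15M_LM, without overlap (-0.74 ± 0.24, adjusted p = 0.060). LUM, BGN and FMOD, which encode lumican, biglycan and fibromodulin, differed by -0.53 to 0.92 over the 3 states and did not pass. The crosslinking enzymes LOX, LOXL1 and LOXL2 did not pass either in the main fit, with differences of -1.09 to 0.10. LOXL2 passed as lower in GD15M_CM without both gilts whose LM libraries stand apart. It also passed with only the libraries compared, with library weights, with median-ratio scaling or with quantile normalization.

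Markers of some other cells moved with the layers. Calls are to be read against the shares of all genes that passed as higher and lower in CM. These were 10.9% and 3.56% in GD15M, 13.4% and 2.43% in GD12M, and 11.8% and 0.893% in CD15M. Summed over 11 genes, epithelial markers lay at 1321 to 2951 TPM in GD15M_CM and 13.4 to 799 TPM in GD15M_LM. They lay at 1209 to 2146 TPM in GD12M_CM and 41.3 to 62.4 TPM in GD12M_LM, and at 1659 to 3129 TPM in CD15M_CM and 153 to 339.9 TPM in CD15M_LM. Of these 11 genes, 10, 11 and 10 passed as higher in CM in GD15M, GD12M and CD15M, and none was at 0 in any library. Summed smooth muscle markers were at 13732 to 26720 TPM in GD15M_CM and 39736 to 52411 TPM in GD15M_LM, and 5 of 10 passed as lower in CM. In GD12M the sums were 19391 to 38020 TPM in CM and 45379 to 53690 TPM in LM, and 1 of 10 passed. In CD15M 0 of 10 passed. The sums of cyclic gilts 1 to 3 were 22822, 31052 and 20480.5 TPM in CM, against 39256, 40827 and 15328 TPM in LM. Summed fibroblast markers were at 707 to 849 TPM in GD15M_CM and 413 to 495 TPM in GD15M_LM, and at 473 to 785 TPM in GD12M_CM and 324 to 636 TPM in GD12M_LM. Of 8 fibroblast genes 3, 2 and 1 passed as higher in CM in GD15M, GD12M and CD15M and 0 as lower. DPT and SFRP4 had lower values in CM in both pregnant states without passing (DPT -0.88 in each). Summed leukocyte markers were at 92.6 to 242 TPM in GD15M_CM and 87.8 to 129.7 TPM in GD15M_LM, and 5 of 8 passed as higher in CM. In GD12M and in CD15M 1 of 8 did. Of 6 endothelial and 5 nerve markers 0 passed in any state. Of 6 pericyte markers 1 passed as higher in GD12M and 0 in the other states. Of 3 mesothelial markers tested 1 passed as higher in GD12M, 1 in CD15M and 0 in GD15M. Their median log2 fold changes were negative, at -0.80, -0.28 and -0.59. Summed over 4 genes, mesothelial markers lay at 120 to 191 TPM in GD12M_CM and 248 to 279 TPM in GD12M_LM. They lay at 99.3 to 166 TPM in GD15M_CM and 219 to 249.8 TPM in GD15M_LM, and the cyclic layers overlapped. The part of these cells in the layer differences of the ECM genes was not tested.

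Whether a layer difference itself differed between states was tested with an interaction contrast. Between day 15 and day 12 of pregnancy 0 of 41 members passed in limma, as did 0.0196% of all genes (0.00652% higher, 0.013% lower). An unadjusted p below 0.05 was reached by 3 of 41 members and by 1065 of 15343 genes. The lowest adjusted p was 0.46, for THBS1, whose layer difference was -0.57 ± 0.15 in GD15M and 0.77 ± 0.19 in GD12M (log2, SD over 3 gilts). FBLN2 differed in the same way, at 0.01 ± 0.56 in GD15M and 1.54 ± 0.62 in GD12M (difference of -1.53 ± 0.68 SE, adjusted p = 0.72). The layer differences of these genes did not overlap between the gilts of both days. Between GD15M and CD15M 0 of 41 members passed, against 0.189% of all genes (0.0521% higher, 0.137% lower). Here 5 of 41 members and 1442 of 15343 genes had an unadjusted p below 0.05. For CCN2 the layer difference was 2.68 ± 0.58 in GD15M and 1.13 ± 0.77 in CD15M (difference of 1.55 ± 0.44 SE, adjusted p = 0.31). For THBS4 it was -4.47 ± 0.50 in GD15M and -1.71 ± 0.71 in CD15M (difference of -2.77 ± 0.84 SE, adjusted p = 0.35). In both genes the layer differences of the pregnant gilts were wider than those of the cyclic gilts without overlap, and the test was not passed. The members' median of this contrast was -0.58 with all gilts and -0.03 without cyclic gilt 3, when 0.571% of all genes passed (0.367% lower).

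The second question was how the matrix genes of a layer differ between states. The comparisons of GD15M with GD12M and with CD15M share the GD15M libraries. In CM, 0 of 41 members passed between day 15 and day 12 of pregnancy in limma, as did 0.027% of the 14813 genes tested (0.0203% higher, 0.00675% lower). An unadjusted p below 0.05 was reached by 11 of 41 members and by 2302 of the 14813 genes. Most members nevertheless had lower values on day 15, with 32 negative and 9 positive log2 fold changes and a median of -0.50, against 0.06 for all genes. The libraries of 16 members did not overlap and were lower in GD15M_CM (39% of the members, against 7.45% of all genes), and 0 members were higher without overlap (against 11.1%). These 16 were COL1A1, COL1A2, COL3A1, COL5A1, COL5A2, COL18A1, FBN1, EFEMP1, MFAP5, LTBP1, VCAN, OGN, FN1, SPARC, TNC and LOX, which include all 5 fibrillar collagens. COL1A1 averaged 5870 ± 989 TPM in GD15M_CM and 10769 ± 2360 TPM in GD12M_CM (-0.87 ± 0.42, adjusted p = 0.37). COL3A1 averaged 7324 ± 2027 TPM in GD15M_CM and 10249.8 ± 413 TPM in GD12M_CM (-0.53 ± 0.36, adjusted p = 0.53). TNC had the lowest adjusted p of the members. It was at 44.4, 33.6 and 23.0 TPM in GD15M_CM, against 178, 290.1 and 125 TPM in GD12M_CM (-2.48 ± 0.42, adjusted p = 0.067). VCAN was at 13.1, 8.67 and 9.56 TPM in GD15M_CM, against 49.6, 22.9 and 24.9 TPM in GD12M_CM (-1.48 ± 0.33, adjusted p = 0.11). FN1 averaged 202 ± 58.2 TPM in GD15M_CM and 476 ± 164 TPM in GD12M_CM (-1.20 ± 0.48, adjusted p = 0.27). The count of 0 became 2 without GD15M gilt 1, when TNC and FMOD passed as lower, as did 0.367% of all genes (2.41% in either direction). The GD15M_CM library of gilt 2 was the lowest of its group for COL1A1, COL3A1, SPARC and DCN. Without it the members' median was -0.38 and 0 members passed. With all gilts 0 cell markers passed here, and their medians were -0.34 for smooth muscle, -0.79 for mesothelium and 0.16 for epithelium. Those of fibroblasts, endothelium, pericytes, leukocytes and nerve were 0.25, 0.43, 0.29, 0.97 and 0.59. The part of these cells in the lower ECM values was not tested.

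Against the cyclic gilts, 1 member passed in CM, or 2.44% of the members against 0.155% of all genes (0.0743% higher, 0.081% lower). EFEMP1 (ENSSSCG00000008397, chromosome 3, 85407677 to 85473251) encodes fibulin-3, a secreted glycoprotein of the elastic fibre family. It was at 38.9, 41.8 and 47.8 TPM in GD15M_CM, against 93.0, 108 and 88.5 TPM in CD15M_CM (-1.15 ± 0.14, adjusted p = 0.023). The call was lost without GD15M gilt 2 and without each cyclic gilt (0.0068% of all genes passed without gilt 3). GD12M_CM lay between, at 65.8, 73.9 and 64.6 TPM. In LM the same order was seen, with 44.1, 31.6 and 52.2 TPM in GD15M, 70.4, 86.2 and 76.1 TPM in GD12M and 136, 115 and 102 TPM in CD15M. No library of one state overlapped another state within a layer. In LM the difference did not pass (-1.46 ± 0.25 against CD15M, adjusted p = 0.073, and -0.87 ± 0.25 against GD12M, adjusted p = 0.81). In CM, OGN was at 116, 56.1 and 111 TPM in GD15M, against 175, 199 and 157 TPM in CD15M (-0.97 ± 0.25, adjusted p = 0.16). LTBP1, which encodes a binding protein of latent TGF-beta, was at 79.7, 71.3 and 78.2 TPM in GD15M_CM, against 273, 201 and 136 TPM in CD15M_CM (-1.35 ± 0.34, adjusted p = 0.16). Neither overlapped between the states. COL15A1 was the only member higher in GD15M_CM without overlap, at 278, 326 and 274 TPM, against 145, 239 and 109 TPM in CD15M_CM (0.90 ± 0.37, adjusted p = 0.30). In all, 6 members were lower without overlap (14.6%, against 11.9% of all genes) and 1 was higher (2.44%, against 8.07%). The other lower ones were COL12A1, LOX and THBS1. The members' median was -0.21, where all genes gave -0.05, and it was 0.01 without GD15M gilt 2.

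In LM, 0 of 41 members passed between day 15 and day 12 of pregnancy, as did 0% of the 14025 genes tested. An unadjusted p below 0.05 was reached by 1 of 41 members and by 692 of the 14025 genes. Without overlap 5 members were lower (12.2%, against 7.53% of all genes), namely LOXL1, COL15A1, EFEMP1, VCAN and FMOD, and LTBP2 and FBLN2 were higher (4.88%, against 20.5%). FMOD, which encodes the collagen-binding proteoglycan fibromodulin, was at 179, 185 and 179 TPM in GD15M_LM, against 348, 383 and 346 TPM in GD12M_LM (-0.98 ± 0.62, adjusted p = 0.94). FBLN2 was at 103, 67.4 and 105 TPM in GD15M_LM, against 35.9, 45.2 and 24.5 TPM in GD12M_LM (1.38 ± 0.84, adjusted p = 0.94), also without overlap. The members' median was -0.11, where all genes gave 0.17, and it was 0.09 without GD15M gilt 2. Standard errors were wide in this fit, which included the LM library of cyclic gilt 3.

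Against the cyclic gilts, 0 of 41 members passed in LM with all libraries, as did 0.178% of all genes (0.164% higher, 0.0143% lower). An unadjusted p below 0.05 was reached by 3 of 41 members and by 1679 of 14025 genes. EFEMP1 and OGN were lower without overlap (4.88%, against 9.5% of all genes) and 0 members were higher (against 11.8%). Here the LM library of cyclic gilt 3 decided the outcome. Without it, 4 members passed as lower in GD15M_LM, or 4 of 41 against 1.31% of all genes for lower calls and 2.64% for calls in either direction. FBLN5 was at 195, 192 and 242 TPM in GD15M_LM, against 543 and 444 TPM in cyclic gilts 1 and 2 (-1.23 ± 0.20, adjusted p = 0.016). FBN1 was at 82.3, 68.2 and 86.3 TPM in GD15M_LM, against 213 and 154 TPM (-1.19 ± 0.24, adjusted p = 0.032). VCAN was at 6.84, 7.71 and 6.93 TPM, against 19.4 and 15.1 TPM (-1.15 ± 0.18, adjusted p = 0.015), and EFEMP1 differed by -1.56 ± 0.21 (adjusted p = 0.0080). In the library left out FBLN5 was at 61.0 TPM, FBN1 at 26.1 TPM and VCAN at 4.24 TPM, below all GD15M_LM libraries, while EFEMP1 was at 102 TPM. The median log2 fold change of the members was 0.35 with all libraries, and -0.49 without it. The sign of the members as a group in this comparison therefore rested on 1 library. Over all genes the medians were 0.13 with all libraries and -0.10 without it.

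**Figure D5:**
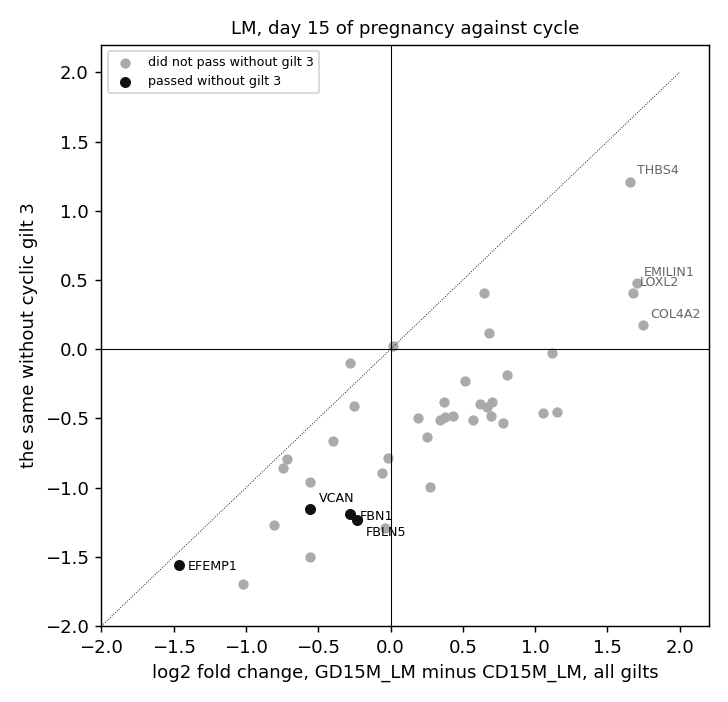
Log2 fold change of GD15M_LM minus CD15M_LM for 41 members with all gilts (horizontal axis) and without the LM library of cyclic gilt 3 (vertical axis), with a dotted line where both are equal. Most members lie below the line, the median is 0.35 with all gilts and -0.49 without gilt 3, and FBLN5, FBN1, VCAN and EFEMP1 (black) passed without it.

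The balance of the collagen chains was compared as ratios of TPM, which is a level per transcript length. The ratio of COL3A1 to COL1A1, the genes of the thin and the thick fibril collagens, averaged 1.23 ± 0.15 in GD15M_CM and 0.859 ± 0.084 in GD15M_LM, and 0.980 ± 0.196 in GD12M_CM and 0.660 ± 0.015 in GD12M_LM (SD, n = 3 each). It was higher in CM than in LM in 8 of 9 gilts. In the cyclic gilts it was 1.21, 1.47 and 1.85 in CM, against 0.814, 0.955 and 4.91 in LM, and gilt 3 was the exception. COL1A1 and COL1A2 encode the chains of collagen I, which joins a pair of the first with a single copy of the second. Their ratio averaged 1.46 ± 0.12 in GD15M_CM and 1.61 ± 0.04 in GD15M_LM, 1.64 ± 0.17 in GD12M_CM and 1.70 ± 0.03 in GD12M_LM, and 1.21 ± 0.21 in CD15M_CM and 1.20 ± 0.65 in CD15M_LM. It was 0.452 in the LM library of cyclic gilt 3. COL6A1 exceeded COL6A3 in every library, by 1.93 to 4.47 times. The ratios are a description with no test.

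Genes that make, cut, hold or signal through the matrix were counted from fixed lists, to be read against the shares of all genes that passed as higher and lower in CM (10.9% and 3.56% in GD15M, 13.4% and 2.43% in GD12M, 11.8% and 0.893% in CD15M). In collagen processing, 1 of 17 tested genes was higher and 1 lower in CM in each pregnant state, and 0 and 1 in CD15M. P4HA3, a collagen prolyl 4-hydroxylase subunit, was at 34.5 TPM in GD15M_CM and 125 TPM in GD15M_LM on average (-1.74 ± 0.37, adjusted p = 0.010), and P3H2, a prolyl 3-hydroxylase, was higher (1.26 ± 0.26, adjusted p = 0.0089). Both calls were lost without GD15M gilt 1. P4HA3 was also lower in GD12M_CM (-1.94 ± 0.37, adjusted p = 0.0050) and CD15M_CM (-1.31 ± 0.37, adjusted p = 0.040), and the GD12M call was lost without gilt 3 and the cyclic call without each cyclic gilt. Of 21 proteases and inhibitors 1 was higher and 4 were lower in GD15M, 5 and 2 in GD12M, and 1 and 0 in CD15M. ADAMTS9, a protease that cleaves versican, was lower in GD15M_CM (-1.81 ± 0.31, adjusted p = 0.0037).

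Of 14 other basement membrane genes 1 was higher and 4 were lower in CM in GD15M, 0 and 4 in GD12M, and 1 and 0 in CD15M. NID2, which encodes nidogen-2, the linker of laminin and collagen IV, averaged 57.6 TPM in GD15M_CM and 260.5 TPM in GD15M_LM (-2.16 ± 0.31, adjusted p = 0.0015) and was also lower in GD12M_CM (-1.81 ± 0.31, adjusted p = 0.0027). LAMA3, the alpha chain of the laminin of epithelial basement membranes, was higher in GD15M_CM (2.72 ± 0.45, adjusted p = 0.0031) and CD15M_CM (2.30 ± 0.45, adjusted p = 0.0083). Among 22 matrix receptors 3 were higher and 1 lower in GD15M, 4 and 2 in GD12M, and 5 and 0 in CD15M. ITGB8, an integrin subunit that activates latent TGF-beta, was higher in CM in all 3 states (1.88, 2.56 and 2.10, each ± 0.31, with adjusted p = 0.0030, 0.00042 and 0.0023 in GD15M, GD12M and CD15M). ITGB4, the integrin subunit of epithelial hemidesmosomes, was higher in GD15M_CM (2.07 ± 0.50, adjusted p = 0.018), a call lost without gilt 1 or gilt 2. ITGB4 also passed in GD12M (1.71 ± 0.50, adjusted p = 0.037) and in CD15M, where the call was lost without gilt 3. The epithelial markers, given above, were higher in CM in all 3 states. LAMA3 was also higher in CM on day 12, without passing (1.10 ± 0.45, adjusted p = 0.12). It averaged 4.17 TPM in GD12M_CM and 1.48 TPM in GD12M_LM, against 38.1 TPM in GD15M_CM and 4.36 TPM in GD15M_LM. The part of epithelial cells in the LAMA3 and ITGB4 calls was not tested. In TGF-beta signalling 1 of 15 genes was higher in CM in each pregnant state, TGFB1 in GD15M (1.21 ± 0.27, adjusted p = 0.012) and TGFB3 in GD12M (2.02 ± 0.42, adjusted p = 0.0071). The first was lost without each GD15M gilt and the other without GD12M gilt 1. Without cyclic gilt 3 the higher and lower calls in CD15M were 0 and 0 in collagen processing, 0 and 1 in proteases and inhibitors, 1 and 4 in the basement membrane list, 2 and 1 in receptors and 0 and 1 in TGF-beta signalling, where 7.7% and 1.41% of all genes passed. In the comparisons between states 0 genes of these 5 lists passed.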

How the data were processed

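The authors deposited TPM, and each of the 18 libraries sums to 1000000 over 24358 Ensembl genes. The submitters' processing notes and the study's methods name HISAT2 2.1.0 for the alignment, to Sscrofa11.1, and HTSeq 0.9.1 for the counting. How TPM was computed, and whether strand was used, is not given in the sources used here, and the depth is unknown. The members and lists were chosen with earlier results of these data known. Symbols were matched for 14692 genes, coordinates are RefSeq's for Sscrofa11.1 by symbol (CCN1 as CYR61, CCN2 as CTGF), and 0 columns were unused.

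Log2(TPM + 1) was fitted with limma 3.58.1 in R 4.3.3 (empirical Bayes with a trend) after removing genes that reached 1 TPM in fewer than 3 of the fitted libraries, because count tests do not apply to TPM. Fold changes of low genes are understated by the pseudocount. The layer contrasts used all 18 libraries and blocked on the gilt, following the study's paired design, whereas states were compared within the 9 libraries of a layer and without a block. Deviations from group means of libraries with the same number correlated by 0.19 to 0.53 in 9 of 9 pairs. Members that passed are named, with at most 4 passing genes of each related list, of which 1 gene is not reported here. Alternatives were other pseudocounts, filters, scalings, weights and blocks, no fold limit, and leaving out gilts. Plots were drawn with matplotlib 3.10.9.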

Additional observations from a re-analysis of the deposited data

How the results depend on the processing

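No member that passed changed direction under the alternatives run, nor did the related genes with the largest changes, the only other genes followed. Members that did not pass could, such as COL1A1 in LM against CD15M (1.06, and -0.46 without cyclic gilt 3), and the members' median did between the layers of CD15M (-0.53 with library weights), in CM against CD15M, in both LM comparisons and in the interaction with CD15M (0.11 with library weights). THBS4 and CCN2 passed between the layers of GD15M and GD12M under all 14 and 15 alternatives, and FN1 in GD15M under all but the fit with no replicate block. Between the layers, the 7 members that passed in GD15M became 12 with median-ratio scaling (2 higher, 10 lower, against 9.12% and 5.28% of all genes). They became 12 without both gilts whose LM libraries stand apart (3 higher, 9 lower, against 11% and 4.76%), a choice made after seeing the data. With only the libraries compared 2 were higher and 8 lower (11.7% and 4.42%). Library weights gave 3 higher and 7 lower (12.1% and 3.71%), and quantile normalization gave 2 and 7 (7.73% and 6.47%). With no replicate block 1 was higher and 2 lower (7.9% and 2.39%), and 3 passed without each GD15M gilt (8.31% to 10.9% in either direction). The 6 of GD12M became 2 to 5 without 1 GD12M gilt, with 2 without gilt 1 or gilt 3 (10.3% and 8.88% of all genes in either direction). They became 9 with median-ratio scaling (4 higher, 5 lower, against 11.1% and 4.75%). Both quantile normalization (8.71% and 6.04%) and library weights (14.6% and 3.28%) gave 5 higher and 3 lower. The single member of CD15M, CCN2, became 2 higher with a pseudocount of 5 (CCN2 and COL18A1, against 7.22% of all genes). It was replaced by 2 lower, THBS4 and FN1, with median-ratio scaling (2.52%) or library weights (2.5%). Quantile normalization gave 2 higher and 1 lower (6.86% and 3.5%). The count was 0 with no filter on low values, with only the libraries compared or with no replicate block (8.6%, 6.07% and 9.84% in either direction). Without 1 gilt it was 1 to 3 (9.11% to 14.6%), and the 1 left without gilt 3 was lower. Between states, library weights, which give less influence to libraries that stand apart, gave 7 members in place of 0 in CM between GD15M and GD12M, 2 in place of 1 in CM between GD15M and CD15M, and 4 and 7 in place of 0 in LM, while the share of all genes that passed became 7.92%, 2.44%, 2.27% and 5.07%. Leaving out 1 gilt gave 0 to 2 in CM for both comparisons, with 2 without GD15M gilt 1. These were TNC and FMOD against GD12M (2.41% of all genes in either direction) and EFEMP1 and FMOD against CD15M (0.462%). In LM between GD15M and CD15M it gave 0 to 4, with 4 without cyclic gilt 3 (2.64%). There 3 passed without both libraries that stand apart (2.33%). EFEMP1 in CM against CD15M did not pass, leaving 0, with median-ratio scaling (adjusted p = 0.056), with only the libraries compared (0.074) or with the replicate block (0.069), and its adjusted p ranged from 0.013 to 0.11. The replicate number pairs layers of a gilt but is only a name across states, and the block changed no other count between states. Library weights gave 2 members in place of 0 for each interaction contrast (1.88% and 4.99% of all genes). Without SPARC, COL1A1, COL3A1 and COL1A2 the ECM share was 1.74% in GD15M_CM, 2.33% in GD15M_LM, 1.92% in GD12M_CM, 2.25% in GD12M_LM, 1.70% in CD15M_CM and 2.24% in CD15M_LM. The cause of these changes was not tested. With 3 gilts a group and unknown depth, the spread between gilts limits every comparison.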
